A study of Mus musculus with 8 samples.

Results

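The 79 genes described here encode subunits of the 5 complexes of oxidative phosphorylation, the mitochondrial machinery that oxidises NADH and succinate and makes ATP. They were chosen by symbol, as every gene with a symbol of its own in the array's annotation that begins with Nduf followed by a, b, c, s or v and a digit, is Sdha, Sdhb, Sdhc or Sdhd, or begins with Uqcr, Cox4 to Cox8 or Atp5. They are 79 of 17097 genes measured, each read by its brightest probe set. The rule itself used no expression value, although it was chosen with earlier results of these data known. Complex I held 34 of them, complex II 4, complex III 7, complex IV 17 and complex V 17. After a filter on low values 78 were tested, and Cox7b2, the testis form of a complex IV subunit, was below background on all 8 arrays and was not tested. Several members are isoforms used in particular tissues, and Ndufs5-ps is annotated as a transcribed pseudogene.

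The arrays held RNA of mouse skin tumour cells sorted on Epcam, a surface protein of epithelial cells, and every group was defined by NR2F2, a nuclear receptor and transcription factor also called COUP-TFII. Papillomas, which are benign skin tumours, carried NR2F2 overexpression (labelled GOF, gain of function) or were labelled NR2F2 WT as their control. Squamous cell carcinomas were K5CreER;NR2F2fl/fl, in which a drug-inducible Cre recombinase under the keratin 5 promoter can delete Nr2f2 in basal keratinocytes (labelled NR2F2 KO), or Cre-negative controls labelled NR2F2 WT. There were 2 arrays in each of the 4 groups, GOF papilloma, control papilloma, KO carcinoma and control carcinoma. How the overexpression was driven, how tumours were started, ages, and whether arrays of 1 group stand for different animals are not given in the sources used here. The p-values therefore rest on the spread between 2 arrays, which may be technical.

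Complex I takes electrons from NADH and complex II takes them from succinate, both pass them to ubiquinone, and complexes III and IV carry them by way of cytochrome c to oxygen. Complexes I, III and IV pump protons out of the mitochondrial matrix, and complex V, the ATP synthase, makes ATP as the protons return. Subunits of complexes I, III, IV and V are also encoded in mitochondrial DNA, and those were not analysed here, so every value is for a nuclear gene. Keratinocytes and squamous tumours use this pathway beside glycolysis.

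Nr2f2 itself followed the labels. It stood at 11.43 and 11.47 on the GOF arrays, against 2.80 and 2.55 on the control papilloma arrays, which were below background, and at 4.77 and 4.996 on the KO arrays, against 7.93 and 8.14 on the control carcinoma arrays (limma adjusted p = 5.31e-06 and 0.00475). The call in carcinoma ended without either KO or either GOF array, with adjusted p from 0.0596 to 0.0792. The values are log2, and the papilloma and carcinoma columns are on different scales, with array medians of 3.12 to 3.16 and 5.08 to 5.15, so no level is compared between the tumour types. Keratinocyte markers averaged 10.19 and 10.24 on the GOF arrays, against 10.64 and 10.68 on their controls, and 9.78 and 9.83 on the KO arrays, against 9.93 and 10.12 on theirs. The sorting antigen Epcam fell in GOF papilloma (log2 fold change -1.53, limma adjusted p = 0.0372).

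1 array stood apart among the carcinomas. The median of the 78 members was 10.69 and 10.60 on the KO arrays, against 10.55 on control carcinoma replicate 1 and 10.18 on control carcinoma replicate 2. In papilloma it was 10.07 and 10.02 on the GOF arrays, against 9.86 and 9.72 on the controls. Control carcinoma replicate 2 also had the highest macrophage marker mean of the 4 carcinoma arrays, 6.78 against 5.14 to 5.43 on the other 3, and the highest endothelial mean, 6.26 against 5.03 to 5.31. Its fibroblast (7.73), T cell (4.96), pericyte (5.61), erythroid (7.29) and keratinocyte (10.12) marker means were the highest too. Its skeletal muscle mean was the lowest, at 4.98. The carcinoma medians of the members and of each complex are therefore also given without that array. In sorted bulk RNA, fewer cells of a type and less RNA per cell cannot be told apart.

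**Figure D1:**
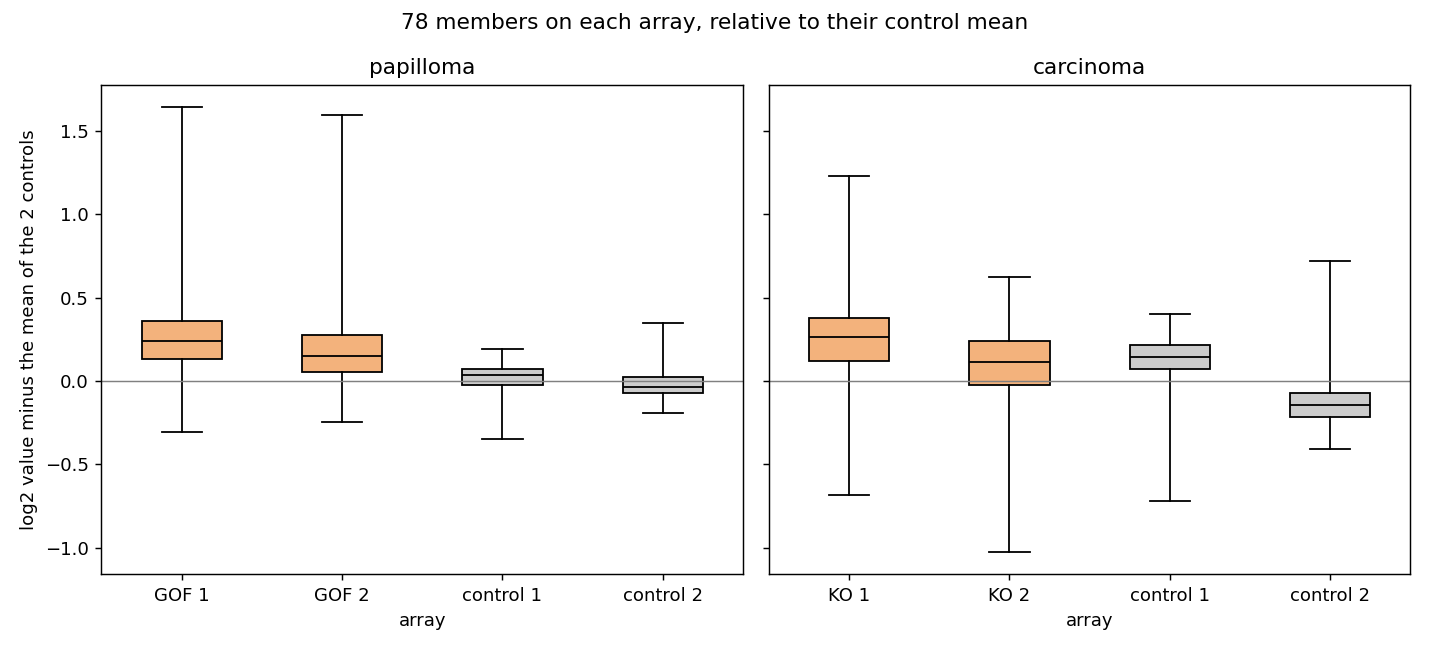
The 78 members on each array, as the log2 value minus the mean of the 2 control arrays of the same tumour type; boxes span the quartiles, the line is the median and whiskers reach the lowest and highest member. Both GOF medians lie above both control medians, with the boxes of GOF 2 and control 1 overlapping at their edges, whereas the KO boxes lie above control 2 and overlap control 1 of the carcinomas.

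With NR2F2 overexpressed in papilloma, the subunit genes stood slightly above their controls as a group, while no member passed the test on its own. The median log2 fold change of the 78 members was 0.20, against 0.02 over all 13939 genes tested, and 67 members had a positive value, against 53.6% of all genes. Complex I genes had the highest median, 0.29, and complex II genes, which encode succinate dehydrogenase, stood at -0.01. The most extreme member was Ndufa4l2, a paralogue of a respiratory chain subunit gene, at 1.62. By limma 0 of 78 members passed an adjusted p of 0.05 in either direction, where 0.76% of all genes passed higher and 0.452% lower. At an unadjusted p under 0.05 there were 7 higher members and 0 lower ones, against 9.94% and 6.47% of all genes, and 7 of 78 members is close to that background. Both GOF arrays lay above both control arrays for 57 of the 78 members and below both for 3, against 27.3% and 21.3% of all genes. With 2 arrays against 2 an exact permutation test cannot go below p = 0.333. Among brighter genes alone the background was higher, with 32.7% of 8079 genes above both controls and a median of 0.06.

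**Figure D2:**
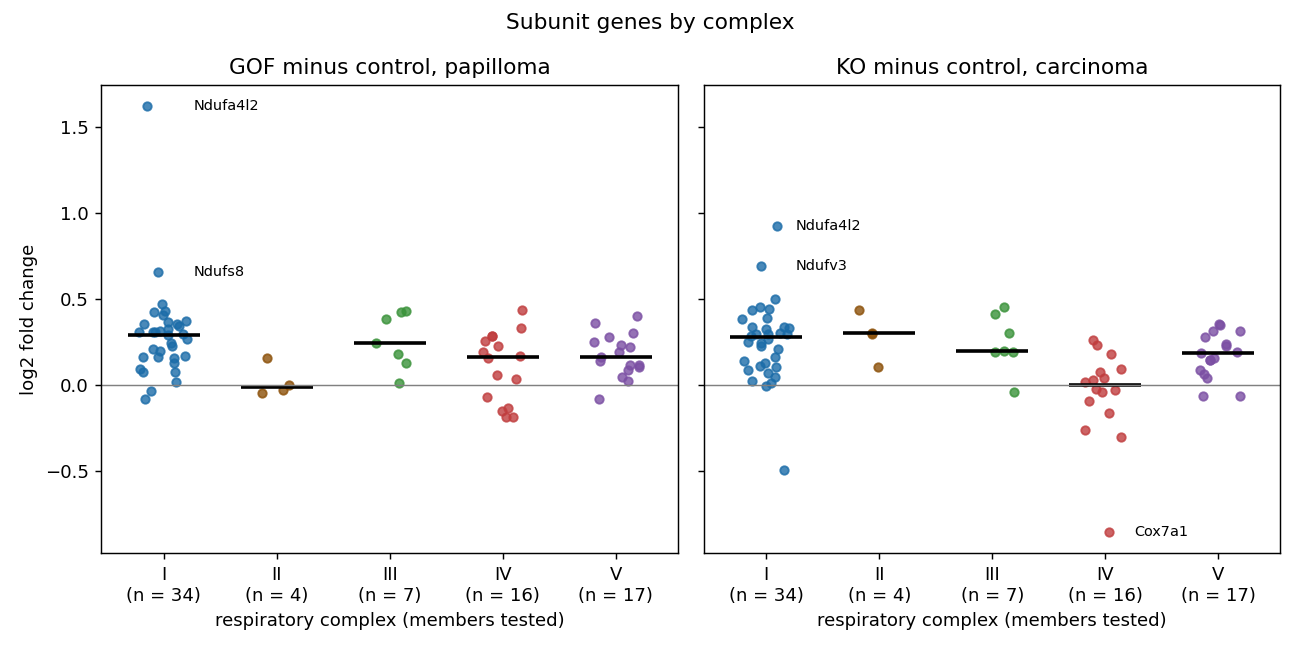
Log2 fold change of each of the 78 tested members by respiratory complex, GOF minus control papilloma on the left and KO minus control carcinoma on the right; each point is a gene and the bar is the complex median. Complex I medians were 0.29 and 0.28, and complex II stood at -0.01 in GOF papilloma and 0.30 in KO carcinoma.

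**Figure D3:**
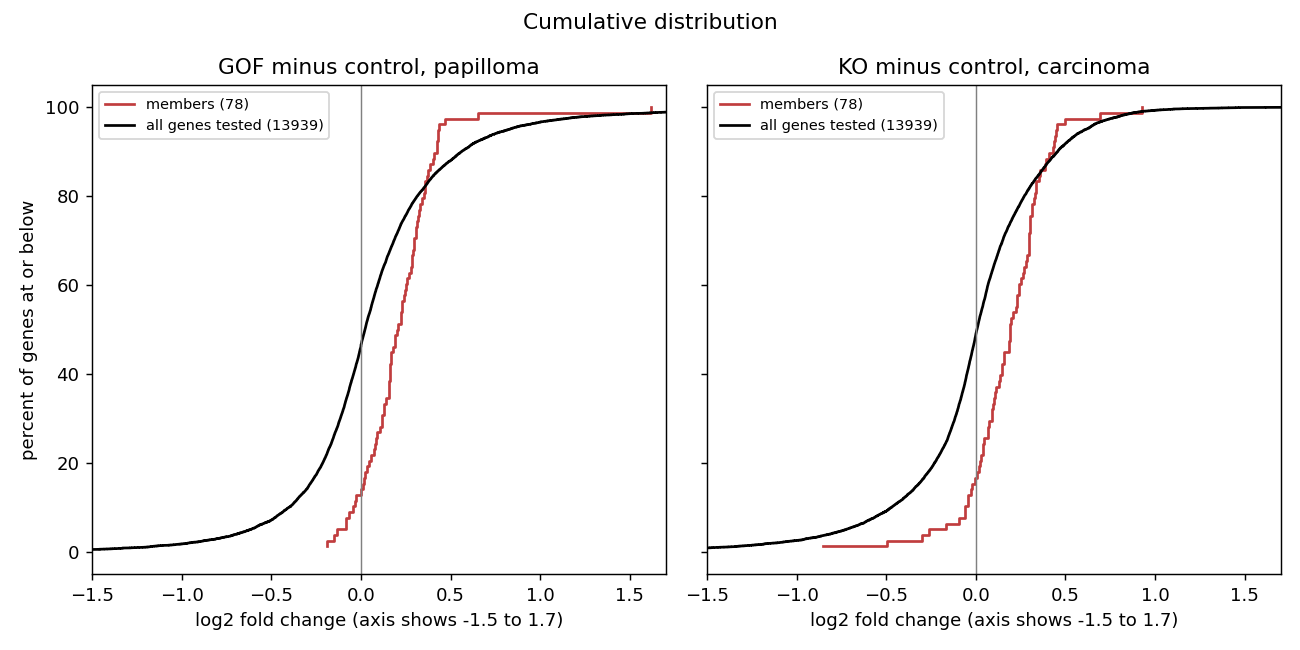
Cumulative percent of genes at or below each log2 fold change, for the 78 members and for all 13939 genes tested, in the 2 comparisons. The members' curve is shifted to the right of all genes at its middle, with medians of 0.20 against 0.02 in GOF papilloma and 0.19 against 0.01 in KO carcinoma.

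The members' promoters were searched for short letter runs, which the choice by symbol did not use. RefSeq promoters of build GRCm38.p6 were used, 300 bases of which 250 precede the start. They were matched by Entrez gene identifier to 63 of the 79 members and compared with those of 27025 genes. The letters GCGCATGCG on either strand, the core of the site of NRF1, a transcription factor known for driving respiratory genes, were in 8 of 63 member promoters (12.7%), against 1.81% of all. Of these 8, 6 held the letters wholly before the start, and the surroundings of those 6 are given because NRF1 is the classical regulator of this pathway. Capitals mark the letters found, where GCGCATGCGC holds the motif on both strands with 8 bases shared.
Ndufa11: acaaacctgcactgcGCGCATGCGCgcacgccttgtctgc
Ndufa8: gcgcgtcgctggagaCGCATGCGC
Cox6a1: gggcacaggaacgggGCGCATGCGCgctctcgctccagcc
Atp5g2: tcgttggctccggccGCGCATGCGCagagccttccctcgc
Atp5k: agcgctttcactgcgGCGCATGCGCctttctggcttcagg
Atp5l: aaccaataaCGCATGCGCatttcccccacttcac

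These windows lie at chr17:56717687-56717726 on the plus strand (Ndufa11) and, on the minus strand, at chr2:36049339-36049362 (Ndufa8), chr5:115349096-115349135 (Cox6a1), chr15:102671065-102671104 (Atp5g2), chr5:108434425-108434464 (Atp5k) and chr9:44920959-44920992 (Atp5l). The 6 genes did not share a value. Their log2 fold changes in GOF papilloma were 0.34, 0.43, 0.06, -0.08, 0.22 and 0.12, in the order of the sequences, and in KO carcinoma 0.09, 0.14, 0.23, 0.28, 0.35 and -0.06. Other letters searched on both strands were AAGATGGC (YY1), in 9 member promoters (14.3%) against 2.88% of all, and TCAAGGTCA (estrogen-related receptors), in 2 (3.17%) against 0.407%. CCGGAAGT (GABP) was in 4 (6.35%) against 4%, and ACGTG (hypoxia-inducible factors) in 17 (26.98%) against 19.7%. AGGTCA, the half-site of nuclear receptors, which also lies within the estrogen-related receptor letters, was in 14 (22.2%) against 16.0%. The spaced pair of half-sites in one direction with 1 base between, an arrangement that NR2F2 can bind, was in 0 of 63 against 0.0444%. The members' promoters were also richer in G and C, with a median of 57.3% against 52.7%, and these matches are letters in a window and no more.

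In GOF papilloma 32 of 34 complex I genes had positive values and 30 lay above both controls, against 53.6% and 27.3% of all genes. The 6 core subunits measured include those that carry the flavin and the iron-sulphur clusters that pass electrons inward. All 6 were above both controls, with a median of 0.26. Ndufs8, which holds a pair of iron-sulphur clusters, stood at 7.33 and 7.36 on the GOF arrays, against 6.81 and 6.57 on the control arrays, higher by 0.65 on the log2 scale (SE 0.28, limma adjusted p = 0.319). Its 4 probe sets lay between 0.24 and 0.69. Ndufs3 stood at 8.37 and 8.30 in GOF, against 7.93 and 8.002 in control, and Ndufs1, the largest subunit, at 6.43 and 6.38, against 6.18 and 6.05. Neither gene's groups overlapped, and the differences were 0.37 and 0.29. Ndufv1, which binds NADH and flavin, was at 11.16 and 11.21 in GOF, against 11.06 and 10.998 in control, and its partner Ndufv2 at 10.21 and 10.10, against 9.97 and 9.88. Ndufs7 differed least of the 6, at 10.85 and 10.82 in GOF, against 10.76 and 10.59 in control.

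The other genes of complex I encode the supernumerary subunits around that core and assist its assembly and stability. Ndufs4, whose loss causes complex I deficiency, was at 9.34 and 9.03 in GOF, against 8.62 and 8.82 in control (0.47, SE 0.20, limma adjusted p = 0.312). Ndufc1 stood at 11.33 and 11.32 in GOF, against 10.999 and 10.80 in control (0.42, SE 0.15, limma adjusted p = 0.229), and Ndufa8, a member with the NRF1 letters, at 9.19 and 9.16, against 8.94 and 8.56 (0.43). The lowest of the complex were Ndufa6 and Ndufa10, whose groups overlapped. Ndufa6 was at 9.03 and 9.03 in GOF, against 9.23 and 8.998 in control, and Ndufa10 at 9.43 and 9.36, against 9.50 and 9.36. Ndufs5-ps was at 10.03 and 10.02 in GOF, against 9.71 and 9.62 in control, and a pseudogene probe set may also read its parent gene.

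Ndufa4 and Ndufa4l2 carry complex I names, although Ndufa4 is now counted as a subunit of complex IV. Ndufa4 stood at 11.07 and 11.03 on the GOF arrays, against 10.80 and 10.48 on the controls (0.41, SE 0.16, limma adjusted p = 0.271). Its paralogue Ndufa4l2, known as a target of hypoxia-inducible factor that lowers complex I activity, stood at 7.65 and 7.60 in GOF, against 5.82 and 6.20 in control. The difference was 1.62, with an SE of 0.45 and an adjusted p of 0.149 by limma, and the groups did not overlap. It passed on the 4 papilloma arrays alone (limma adjusted p = 0.0379) and without either control carcinoma array (0.0399), and passed under no other alternative run. Ndufa4l2 is also known from mouse pericytes, and the pericyte marker Rgs5 was at 8.33 and 7.62 in GOF, against 3.23 and 3.52 in control (limma adjusted p = 0.0635). The 6 pericyte markers measured averaged 4.75 and 4.62 in GOF, against 3.76 and 3.87 in control, with Des below background on all 4 papilloma arrays. Of the 4 pericyte markers tested only Rgs5 lay above both controls, and the median log2 fold change of the 4 was 0.21. On each GOF array 2 of the 6 were above background, against 2 and 3 on the controls. The part of the pericyte markers in the result was not tested.

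**Figure D4:**
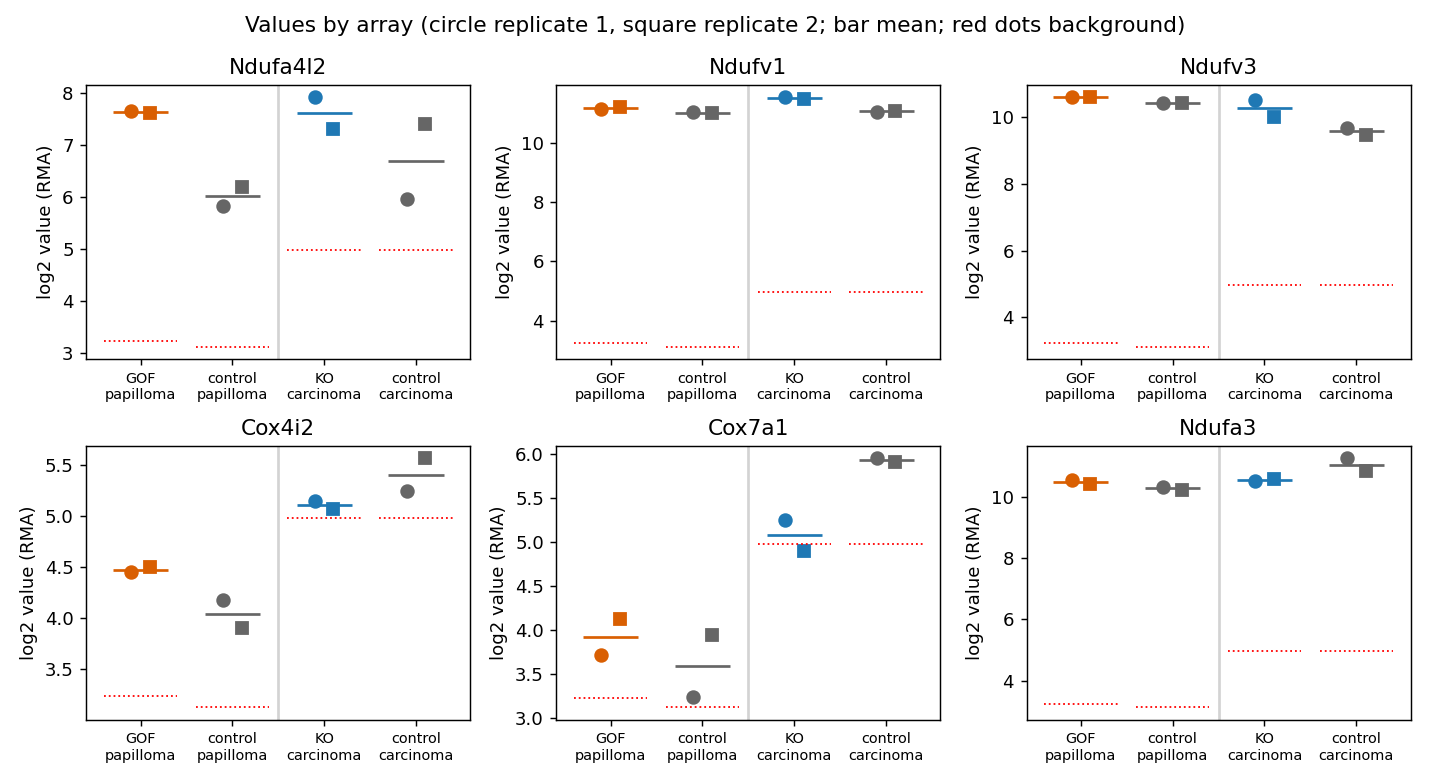
Log2 values of 6 members on each array, GOF left of control papilloma and KO left of control carcinoma; circles are replicate 1, squares replicate 2, bars the mean of 2 and red dotted lines background. The grey line separates tumour types on different scales, and vertical axes differ and do not start at 0; Ndufa4l2 stood at 7.65 and 7.60 in GOF, against 5.82 and 6.20 in control papilloma.

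Succinate dehydrogenase is both complex II and an enzyme of the citric acid cycle. In GOF papilloma 1 of its 4 genes was positive and 0 lay above both controls, against 53.6% and 27.3% of all genes. Its median was 0.14 without GOF replicate 2 and -0.16 without GOF replicate 1. The flavoprotein gene Sdha was at 8.40 and 8.10 in GOF, against 8.35 and 8.25 in control, and the iron-sulphur subunit gene Sdhb at 9.06 and 8.84, against 8.90 and 9.06. The membrane anchors Sdhc and Sdhd were at 7.31 and 7.21 and 7.28 and 6.93 in GOF, against 7.23 and 6.98 and 7.29 and 6.91 in control. All 4 overlapped their controls. A second bright Sdha probe set differed from the first, at 9.12 and 9.08 in GOF, against 8.48 and 8.03 in control, or 0.85, so the direction of Sdha depends on the probe set.

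In complex III, which moves electrons from ubiquinol to cytochrome c, 7 of 7 genes were positive and 5 lay above both controls. Over all genes the shares were 53.6% and 27.3%. The complex III median was 0.24, or 0.13 without GOF replicate 1. Uqcr10, a small subunit, stood at 10.45 and 10.29 in GOF, against 9.93 and 9.97 in control (0.42, SE 0.22, limma adjusted p = 0.415). The Rieske iron-sulphur protein gene Uqcrfs1 was at 7.60 and 6.999 in GOF, against 6.72 and 7.02 in control, so that its 0.43 rested on GOF replicate 1 and its groups overlapped. The structural core genes differed less, with Uqcrc1 at 8.63 and 8.42 in GOF, against 8.39 and 8.30 in control, and Uqcrc2 at 10.68 and 10.65, against 10.78 and 10.54. Uqcrb, which helps bind ubiquinone, was at 9.39 and 9.38, against 9.27 and 9.26 in control.

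The nuclear subunits of cytochrome c oxidase surround a core made from mitochondrial DNA, and many exist as a common form and a form of heart, muscle, lung or testis. In GOF papilloma 11 of 16 were positive, 8 lay above both controls and 2 below, against 53.6%, 27.3% and 21.3% of all genes. The complex IV median was 0.16, or 0.073 without GOF replicate 1. The common forms Cox5a and Cox5b stood at 10.87 and 10.79 and 11.48 and 11.30 in GOF, against 10.67 and 10.60 and 11.26 and 11.18 in control. Cox4i1, a large regulatory subunit, was at 11.08 and 10.97, against 10.95 and 11.02 in control, and Cox6a1 at 11.52 and 11.38, against 11.37 and 11.42, and both overlapped. Cox6b1 and Cox7a2 did not overlap, at 11.73 and 11.76 and 11.88 and 11.86 in GOF, against 11.56 and 11.41 and 11.58 and 11.60 in control. Below both controls lay Cox7a2l, a factor that joins complexes III and IV into supercomplexes, at 10.63 and 10.63 in GOF, against 10.87 and 10.76 in control (-0.19, SE 0.12, limma adjusted p = 0.513). Cox8a was at 10.31 and 10.08, against 10.36 and 10.30 in control.

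The tissue forms were dim. Cox4i2, the form of lung and of hypoxic cells, stood at 4.45 and 4.49 in GOF, against 4.17 and 3.90 in control (0.44, SE 0.16, limma adjusted p = 0.257). The heart and muscle forms Cox6a2, Cox7a1 and Cox8b were at 3.86 and 4.16, 3.72 and 4.13 and 3.62 and 3.45 in GOF, against 4.19 and 4.13, 3.25 and 3.94 and 3.42 and 3.33 in control. Cox6a2 and Cox7a1 overlapped their controls. The testis form Cox6b2 was at 3.36 and 3.34 in GOF, against 3.37 and 3.70 in control. All of these lay below the highest of the GC-rich control probe sets with no mouse target, 4.51 to 5.65 on the papilloma arrays. Cox6a2, Cox7a1, Cox8b, Cox6b2 and Cox8c were under the filter level of 4.23 on every papilloma array and entered the counts through the carcinoma arrays. Cox8b is among the 8 complex IV genes above both controls in GOF papilloma, and Cox6b2 is 1 of the 2 below. Skeletal muscle markers averaged 3.13 and 2.96 in GOF, against 3.17 and 3.05 in control.

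ATP synthase genes were positive in 16 of 17 cases in GOF papilloma and above both controls in 14. Over all genes the shares were 53.6% and 27.3%. The complex V median was 0.16. The catalytic head and its central stalk are built from Atp5a1, Atp5b, Atp5c1, Atp5d and Atp5e, and the highest of them was Atp5d, at 11.42 and 11.31 in GOF, against 10.99 and 10.94 in control (0.40, SE 0.14, limma adjusted p = 0.219). The alpha and beta subunit genes did not separate, with Atp5a1 at 10.08 and 9.95 in GOF, against 9.96 and 10.03 in control, and Atp5b at 9.47 and 9.06, against 8.92 and 9.43. Atp5c1 was at 9.76 and 9.67, against 9.60 and 9.45 in control. Atp5o, which joins the head to the stator stalk, was at 9.82 and 9.71 in GOF, against 9.46 and 9.35 in control (0.36). Atp5g1, Atp5g2 and Atp5g3 encode the same ring subunit and did not move alike. They stood at 9.64 and 9.22, 8.55 and 8.48 and 11.25 and 11.15 in GOF, against 9.08 and 9.17, 8.64 and 8.55 and 11.09 and 11.10 in control, so that Atp5g2 was below both controls.

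In KO carcinoma the members again stood above their controls at the median, but this rested on control carcinoma replicate 2. The median log2 fold change was 0.19, against 0.01 over all genes, and 65 of 78 members were positive, against 51% of all genes. Without control replicate 2 the median was 0.03, and without control replicate 1 it was 0.36. After the dimmer Ndufa4l2, the complex I genes Ndufv3 and Ndufa9 stood highest, and Cox7a1 and Ndufa3 lowest. By limma 0 of 78 members passed an adjusted p of 0.05, where 0% of all genes passed higher and 0.0143% lower. At an unadjusted p under 0.05 there were 6 higher members and 2 lower, against 8.34% and 5.44% of all genes. Both KO arrays lay above both controls for 26 members and below both for 4, against 23.8% and 19.1% of all genes. Among brighter genes alone, 30.1% of 8079 genes lay above both controls, with a median of 0.07. Of the 72 members among them 36.1% did so, with a median of 0.22. Without control carcinoma replicate 2, 38.5% of members and 34.4% of all genes lay above the remaining control.

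Of complex I in KO carcinoma, 32 of 34 were positive and 16 lay above both controls, against 51% and 23.8% of all genes. The median was 0.28, or 0.068 with 21 positive without control replicate 2. Ndufv1 stood at 11.54 and 11.50 on the KO arrays, against 11.05 and 11.08 on the controls, a difference of 0.46 (SE 0.12, limma adjusted p = 0.190), with little spread in either group. Its promoter, the 250 bases before the start at chr19:4012756-4013005 on the minus strand, is given because Ndufv1 had the lowest p of the members in this comparison. Capitals mark ACGTG on both strands, and no NRF1 letters were found.
Ndufv1: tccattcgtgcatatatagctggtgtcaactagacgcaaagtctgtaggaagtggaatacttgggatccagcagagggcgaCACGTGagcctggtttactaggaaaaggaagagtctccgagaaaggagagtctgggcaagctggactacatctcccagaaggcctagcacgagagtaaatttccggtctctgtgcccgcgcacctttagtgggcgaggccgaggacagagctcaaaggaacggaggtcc

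Ndufv3, a small subunit that sits with Ndufv1 and Ndufv2, stood at 10.53 and 10.01 in KO, against 9.68 and 9.48 in control (0.69, SE 0.19, limma adjusted p = 0.204). Ndufv2 was at 10.65 and 10.61, against 10.46 and 10.20 in control (0.30), so that all 3 lay above both controls. Ndufa9 stood at 10.74 and 10.90 in KO, against 10.49 and 10.15 in control (0.50, SE 0.17, limma adjusted p = 0.271). Among the other core genes, Ndufs1 was at 8.70 and 8.95 in KO, against 8.66 and 8.37 in control, and Ndufs3 at 10.30 and 10.25, against 10.23 and 9.88. Ndufs7 was at 10.98 and 10.85 and Ndufs8 at 8.90 and 8.31 in KO, against 10.84 and 10.58 and 8.71 and 8.01 in control, and Ndufs8 overlapped. Its 2 control arrays differed by more than the group means did.

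Ndufa3 and Ndufa2, both supernumerary, were the lowest of complex I. Ndufa3 stood at 10.53 and 10.59 in KO, against 11.28 and 10.84 in control (-0.50, SE 0.17, limma adjusted p = 0.286), and Ndufa2 at 11.06 and 10.97, against 11.15 and 10.89. The groups of Ndufa3 did not overlap. Ndufa4 was at 11.71 and 11.64 in KO, against 11.45 and 11.23 in control (0.33). Ndufa4l2 overlapped, at 7.91 and 7.30 in KO, against 5.96 and 7.40 in control (0.93, SE 0.45, limma adjusted p = 0.438). Its low value was that of control replicate 1. The pericyte marker Rgs5 was at 3.71 and 5.19 in KO, against 4.63 and 7.20 in control, highest on control replicate 2, and its part in the result was not tested.

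Complex II genes were all positive in KO carcinoma, with a median of 0.30. Of the 4, 2 lay above both controls, against 23.8% of all genes. Without control replicate 2 the median was 0.12 and 2 of 4, Sdha and Sdhd, were positive. Sdhd was at 7.47 and 7.66 in KO, against 7.11 and 7.16 in control (0.43, SE 0.19, limma adjusted p = 0.386), and Sdha at 10.87 and 10.88, against 10.59 and 10.55 (0.30, SE 0.14, limma adjusted p = 0.426). These 2 separated from both controls. Sdhb and Sdhc overlapped, at 10.56 and 10.17 and 8.70 and 8.32 in KO, against 10.40 and 9.73 and 8.81 and 8.002 in control. Of complex III, 6 of 7 were positive, with a median of 0.20, or 0.058 without control replicate 2. Above both controls lay 2 of 7 (28.6%), against 23.8% of all genes. These 2 were Uqcrc1, at 10.54 and 10.52 in KO, against 10.36 and 9.81 in control (0.45), and Uqcrfs1, at 9.92 and 9.75, against 9.71 and 9.36. Uqcr10 and Uqcr11 were at 10.03 and 9.53 and 10.77 and 10.63 in KO, against 9.60 and 9.13 and 10.73 and 10.29 in control, and Uqcrb at 10.21 and 9.94, against 10.02 and 9.75. Uqcrc2 was at 11.29 and 11.63, against 11.46 and 11.55 in control, the only negative value of complex III (-0.04).

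Of complex IV in KO carcinoma 8 of 16 genes were positive, 2 lay above both controls and 3 below. Over all genes the shares were 51%, 23.8% and 19.1%. Without control replicate 2 the median was -0.060 and 5 were positive, and with all arrays the median was -0.0032. The 2 above were Cox5a, at 11.20 and 11.22 in KO, against 10.97 and 10.93 in control, and Cox6a1, at 11.86 and 11.67, against 11.58 and 11.49. The 3 below were Cox7a1, Cox4i2 and Cox6b1. Cox7a1, the muscle form, was at 5.25 and 4.90 in KO, against 5.95 and 5.90 in control (-0.85, SE 0.27, limma adjusted p = 0.247), and 1 of its 2 KO values was below background. Cox4i2 was at 5.14 and 5.07 in KO, against 5.24 and 5.56 in control (-0.30, SE 0.16, limma adjusted p = 0.491), and Cox6b1 at 11.38 and 11.57, against 11.60 and 11.67 (-0.16, SE 0.13, limma adjusted p = 0.682). Cox7a1 and Cox4i2 lay under the highest GC-rich control probe sets, 6.92 to 7.34 on the carcinoma arrays.
Cox7a1: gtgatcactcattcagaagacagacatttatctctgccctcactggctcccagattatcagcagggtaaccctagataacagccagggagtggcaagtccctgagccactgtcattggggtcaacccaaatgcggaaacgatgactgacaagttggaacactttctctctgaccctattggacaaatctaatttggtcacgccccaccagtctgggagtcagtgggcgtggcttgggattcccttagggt

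The Cox7a1 promoter, the 250 bases before the start at chr7:30183921-30184170 on the plus strand, is given beside that of Ndufv1 because Cox7a1 had the most negative value, and these 250 bases held none of the letters searched. The 300-base window counted above held ACGTG once, reaching past them. The common forms barely differed. Cox4i1 and Cox5b were at 11.59 and 11.34 and 11.83 and 11.80 in KO, against 11.54 and 11.19 and 11.90 and 11.64 in control. Cox7a2, Cox7a2l and Cox8a were at 11.89 and 11.83, 11.30 and 11.21 and 10.40 and 10.41 in KO, against 11.99 and 11.70, 11.30 and 11.30 and 10.37 and 10.50 in control. The remaining dim forms overlapped, with Cox6a2, Cox6b2 and Cox8b at 6.31 and 6.21, 4.88 and 5.03 and 5.78 and 5.63 in KO, against 6.18 and 6.27, 4.73 and 5.22 and 6.15 and 5.77 in control. For Cox6b2, 1 array of each carcinoma group was above background. Leaving out the tissue forms and the pseudogene, an alternative added after the data had been seen, the complex IV median was 0.06.

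Of complex V in KO carcinoma, 15 of 17 were positive, against 51% of all genes, with a median of 0.18. Above both controls lay 4 (23.5%), against 23.8% of all genes. Without control replicate 2 the median was 0.030 and 11 were positive. The alpha and beta subunit genes, level in GOF papilloma, separated here. Atp5a1 was at 11.77 and 11.90 in KO, against 11.52 and 11.44 in control (0.36, SE 0.13, limma adjusted p = 0.297), and Atp5b at 11.45 and 11.37, against 11.21 and 10.98. Atp5c1 and Atp5g3 were the other 2 above both controls, at 11.34 and 11.18 and 11.80 and 11.75 in KO, against 11.17 and 10.88 and 11.66 and 11.52 in control. Atp5k, a small membrane subunit, was at 10.94 and 10.47 in KO, against 10.52 and 10.19 in control (0.35), and Atp5o at 10.83 and 10.73, against 10.75 and 10.36. Atp5g1 and Atp5g2 were at 10.31 and 10.01 and 10.32 and 10.01 in KO, against 10.07 and 9.63 and 10.07 and 9.70 in control. Atp5e and Atp5l were the lowest and overlapped, at 9.80 and 9.85 and 10.87 and 10.70 in KO, against 10.24 and 9.53 and 11.03 and 10.67 in control.

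The 2 comparisons have separate controls, so their values can be set side by side. In both, 58 of 78 members were positive, against 28.3% of all genes, and 18 lay above both controls in both, against 7.4% of all genes. None lay below both controls in both. Without control carcinoma replicate 2, 38 members were positive in both, against 27.2% of all genes, and 19 lay above the remaining controls in both, against 10.4%. Of the 18, 14 carry complex I names, among them Ndufs1, Ndufs3, Ndufs4, Ndufs7, Ndufv1, Ndufv2, Ndufv3 and Ndufa9, and the other 4 were Uqcrc1, Cox5a, Atp5c1 and Atp5g3. The values of a gene in the 2 comparisons were weakly related across the 78 members (Pearson r = 0.30, Spearman rho = 0.17), and r was 0.13 without the tissue forms and the pseudogene (70 genes). These genes share arrays and are not replicates.

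Ndufa3, Cox4i2 and Cox6b1 lay above both controls in GOF papilloma and below both in KO carcinoma. Of all genes 27.3% lay above both in the first comparison and 19.1% below both in the second. The share with both was not counted, so these genes cannot be set apart from the background. Cox7a1 had the largest difference between the comparisons, 1.18. Cox7a1 and Cox4i2 were dim in both tumour types, where the scales differ most. By limma's test of that difference 0 of 78 members passed, where 0.0789% of all genes did, and the lowest adjusted p was 0.250, for Cox4i2. For Cox7a1 it was 0.253.

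**Figure D5:**
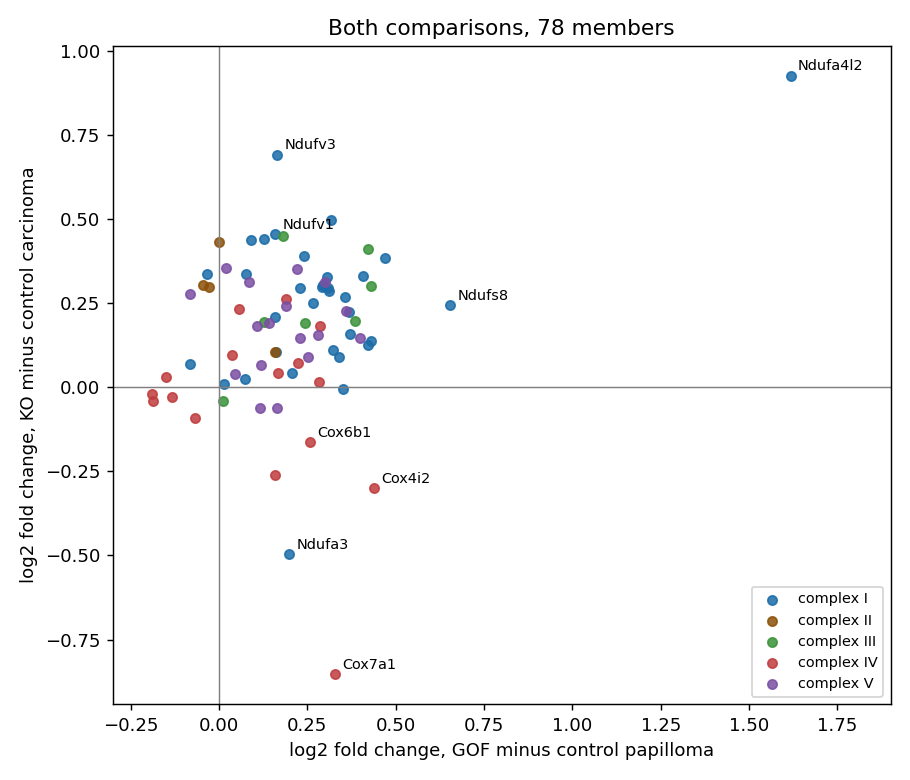
Log2 fold change of the 78 members, GOF minus control papilloma on the horizontal axis and KO minus control carcinoma on the vertical axis, coloured by complex. Most points, 58 of 78, lie at the upper right, and Cox7a1, Cox4i2, Ndufa3 and Cox6b1 lie at the lower right.

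Genes around the complexes were counted from lists of known function. Their list medians and counts in KO carcinoma were not computed without control carcinoma replicate 2, on which the members' median rested. Of 6 subunits and closely tied proteins whose names the rule does not take, 4 were positive in each comparison, against 53.6% and 51% of all genes. Of these 6, 0 passed, with medians of 0.16 in GOF papilloma and 0.27 in KO carcinoma. Cyc1, the cytochrome of complex III, was at 9.88 and 9.60 in GOF, against 9.20 and 9.29 in control papilloma (0.50, SE 0.15, limma adjusted p = 0.162), and at 10.63 and 10.63 in KO, against 10.17 and 10.03 in control carcinoma (0.53, SE 0.15, limma adjusted p = 0.203). Ndufab1, an acyl carrier subunit of complex I, was at 8.85 and 8.78 in GOF, against 8.24 and 8.17 in control (0.61, SE 0.21, limma adjusted p = 0.217). The inhibitor gene Atpif1 was at 11.48 and 11.48 in KO, against 11.62 and 11.56 in control (-0.11), and Dmac2l and the testis cytochrome gene Cyct were dim.

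Assembly factors build the complexes without staying in them, and 44 were tested. In GOF papilloma 1 passed higher and 0 lower, against 0.76% and 0.452% of all genes, with a median of 0.24. It was Coa7, a complex IV assembly factor, at 4.66 and 4.34 in GOF, against 3.39 and 3.49 in control (1.06, SE 0.15, limma adjusted p = 0.0372). On each papilloma array Coa7 lay below the highest of the GC-rich control probe sets, 4.51 to 5.65. The call ended without any 1 of the 4 papilloma or 2 KO arrays, with adjusted p from 0.0672 to 0.221. Cox19, a copper chaperone, did not pass, at 6.40 and 6.26 in GOF, against 5.50 and 4.70 in control (1.23, SE 0.26, limma adjusted p = 0.0827), and it passed without control papilloma replicate 1 (limma adjusted p = 0.0409). Lowest were Ndufaf4 (-0.45) and Ttc19 (-0.43). In KO carcinoma 0 passed, with a median of 0.23, and the highest were the complex I factors Ndufaf6, at 7.41 and 7.10 in KO, against 6.11 and 6.19 in control (1.10, SE 0.18, limma adjusted p = 0.122), and Ndufaf4, at 7.72 and 8.19, against 6.94 and 6.98 (0.99, SE 0.21, limma adjusted p = 0.144). Surf1 (-0.34) and Pet100 (-0.33), both of complex IV, were lowest. Ndufaf4 thus stood below both controls with gain and above both with loss.

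Of 18 citric acid cycle genes 0 passed, with medians of 0.13 in GOF papilloma and 0.21 in KO carcinoma. Ogdh and Dlst, subunits of the oxoglutarate dehydrogenase complex, were highest in GOF (0.48 and 0.48), and Pcx, which refills the cycle from pyruvate, and Idh3g were lowest (-0.75 and -0.26). In KO carcinoma 17 of 18 were positive, against 51% of all genes. Suclg2 and Pdhx were highest (0.62 and 0.59) and Pdha1 and Pcx lowest (-0.04 and 0.07). Of 10 ubiquinone synthesis genes 0 passed. Coq4 and Coq7 were highest in GOF (0.76 and 0.67), Coq10b and Pdss2 lowest (-0.63 and -0.37). In KO carcinoma Coq2 and Coq7 were highest (0.69 and 0.45), Coq8b and Coq10b lowest (-0.44 and -0.43).

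Regulators of mitochondrial biogenesis did not have the members' direction in GOF papilloma. Of 22 tested, 0 passed, and the median was -0.14. Positive were 8, against 53.6% of all genes, and 10 lay below both controls, against 21.3%. Sirt1, a deacetylase, was at 4.48 and 4.20 in GOF, against 5.11 and 5.29 in control (-0.86, SE 0.16, limma adjusted p = 0.0655), and Myc at 7.85 and 8.13, against 9.06 and 8.53 (-0.80, SE 0.23, limma adjusted p = 0.155). Tfam, which packages and transcribes mitochondrial DNA, was at 5.38 and 5.58 in GOF, against 4.93 and 5.22 in control (0.41), and Nrf1, the factor whose letters the promoters were searched for, at 5.17 and 5.32, against 4.62 and 5.19 (0.34). In KO carcinoma 0 passed and 17 were positive, against 51% of all genes, with a median of 0.13. Ssbp1 (0.59) and Polrmt (0.58), which act on mitochondrial DNA, were highest, and Gabpb1 (-0.47) and Sirt1 (-0.30) lowest.

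Of 14 carriers and electron entry genes, Etfdh, which passes electrons of fatty acid oxidation to ubiquinone, fell in GOF papilloma, at 5.68 and 5.93 in GOF, against 6.90 and 7.05 in control (-1.17, SE 0.16, limma adjusted p = 0.0368). That call ended without any 1 of the 4 papilloma or 2 KO arrays, with adjusted p from 0.0539 to 0.233. Vdac3 and the ADP/ATP carrier gene Slc25a4 were highest (0.44 and 0.43) and Gpd2 was next to Etfdh at -0.29. In KO carcinoma 0 of 14 passed. Dhodh, which feeds electrons from pyrimidine synthesis, was at 6.16 and 6.54 in KO, against 5.46 and 5.65 in control (0.80, SE 0.17, limma adjusted p = 0.141), and Etfdh was at 0.38. Ucp1 and Nnt were lowest (-0.13 and -0.02).

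Other cell types' markers also differed between the groups. Of 8 macrophage markers 2 passed higher in GOF papilloma, against 0.76% of all genes. All 8 averaged 5.61 and 6.57 in GOF, against 3.27 and 3.17 in control. Of 7 endothelial markers tested 5 passed higher, and the list averaged 5.44 and 5.55 in GOF, against 3.58 and 3.41 in control. In carcinoma the macrophage mean was 5.14 and 5.43 in KO, against 5.37 and 6.78 in control, and the endothelial mean 5.03 and 5.16 in KO, against 5.31 and 6.26 in control. Fibroblast markers averaged 7.31 and 7.67 in GOF, against 7.35 and 6.33 in control, and 5.93 and 6.60 in KO, against 6.41 and 7.73 in control. Their part in the members' values was not tested.

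The genes outside the members whose values followed the members' mean most closely over the 8 arrays, each centred on its tumour type, were Rnaseh2b (Pearson r = 0.977), Snrpd1 (0.976), Aprt (0.976), Mrpl28 (0.974) and Fyttd1 (0.973). Mrpl28 encodes a protein of the mitochondrial ribosome, Snrpd1 a splicing protein, Aprt a purine salvage enzyme and Rnaseh2b a subunit of ribonuclease H2. Mrpl28 was at 7.12 and 6.85 in GOF, against 6.27 and 6.24 in control papilloma, and at 8.65 and 8.38 in KO, against 8.31 and 7.78 in control carcinoma. All 5 genes were lowest among the carcinoma arrays on control replicate 2, as was the median of the members. The 5 were chosen for following the members on these arrays, so this is no separate observation.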

How the data were processed

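Gene expression of Epcam-sorted mouse skin tumour cells was read on 8 Affymetrix perfect-match strip arrays, 2 in each of 4 groups. The authors deposited 1 table of log2 values normalized with RMA, per the labels, and the submitters' processing notes also name affy; versions are not given in the sources used here. The table held 45141 probe sets, of which 28898 carried 1 gene symbol in the platform annotation. Probe sets with at least 2 of 8 arrays above the median of all values (log2 4.23) were kept, and each gene took its brightest one, which left 13939 genes. This level pools the 2 scales and lies below the carcinoma background, so it let dim genes pass through the carcinoma arrays. With the filter set within each tumour type, 11874 genes and 78 members were left. Of those genes 29.5% lay above both controls in GOF papilloma and 25.5% in KO carcinoma. Of the members, 38 had more than 1 probe set, and these differed in sign for 9 in GOF papilloma and 4 in KO carcinoma.

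The fit used R 4.3.3 and limma 3.58.1 on the deposited values (lmFit with a mean for each of the 4 groups, then eBayes; 4 residual and 2.67 prior degrees of freedom). Adjustment followed Benjamini and Hochberg across the 13939 genes, and 0.05 was the threshold. The procedure was run on simulated data as a check of the code, whose criteria did not cover differences as small as the members' medians. SE is the standard error of the fit. Background is the highest of 44 non-mouse control probe sets on each array. The number of arrays limits the precision.

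The members and gene lists were chosen with earlier results of these data known, and the pericyte list was added after values had been seen. The genes named are the core subunits, the tissue forms, the 2 highest and 2 lowest of each complex or list in each comparison, and the 5 most alike. Cox8c and other members are given by counts. Promoter letters were matched by exact search. Alternatives were other filters, normalizations and probe set rules, a trended and robust variance prior, a replicate block, the arrays of 1 tumour type alone and leaving out each array.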

Additional observations from a re-analysis of the deposited data

Results flagged for a closer look

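For 3 of 78 members both arrays lay above both controls in GOF papilloma and below both in KO carcinoma. Over all genes, 27.3% lay above both controls in GOF papilloma and 19.1% below both in KO carcinoma. The share of all genes with both was not counted, so the 3 members cannot be set apart from the background. Of the 3 members the difference between the comparisons was largest for Cox4i2, at 0.74 on the log2 scale (SE 0.23, limma adjusted p = 0.250). Cox4i2 is the form of lung and hypoxic cells and was dim on all arrays. Ndufa3, a supernumerary subunit of complex I, had a difference of 0.69 (SE 0.24, limma adjusted p = 0.289), and its other probe set did not turn the sign in either comparison. Cox6b1, a bright common subunit of complex IV, had a difference of 0.42 (limma adjusted p = 0.388). The difference itself was tested for each and passed for none, and 0.0789% of all genes passed that test.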

How the results depend on the processing

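The median of the members stayed positive in both comparisons under every alternative run. In GOF papilloma it lay between 0.15 and 0.24 with 1 array left out and was 0.13 with quantile normalization of all 8 arrays. In KO carcinoma it lay between 0.03, without control carcinoma replicate 2, and 0.36, without control carcinoma replicate 1. Members called higher in GOF papilloma numbered 1 on the 4 papilloma arrays alone and 0 to 1 with 1 array left out; no other alternative called a member in either comparison. Members above both controls numbered 57 to 66 in GOF papilloma and 26 to 65 in KO carcinoma with 1 array left out, and those below both 3 to 11 and 4 to 15. The rule is easier to meet with 1 array fewer, and 35.7% to 43.6% of all genes lay above in GOF papilloma and 34.4% to 42.7% in KO carcinoma without an array of that tumour type. With quantile normalization of all 8 arrays or within each tumour type, 6 lay below both controls in GOF papilloma. With the stricter filter, or without the tissue forms and the pseudogene (chosen after seeing the data), 2 did so in KO carcinoma. The complex IV median in KO carcinoma was 0.057 under the stricter filter and without the tissue forms and 0.030 with median centring, and lay between -0.060 and 0.025 with 1 array left out. With 1 array left out the complex medians in GOF papilloma lay between 0.22 and 0.33 (I), -0.16 and 0.14 (II), 0.13 and 0.29 (III), 0.073 and 0.16 (IV) and 0.12 and 0.24 (V). In KO carcinoma the others lay between 0.068 and 0.42 (I), 0.12 and 0.46 (II), 0.058 and 0.41 (III) and 0.030 and 0.36 (V). Replicate numbers were not taken as pairs, since the labels state no shared litter or batch and same-numbered deviations correlated at 0.0018 in papilloma and 0.13 in carcinoma. With the replicate block 0 members were called, with a lowest adjusted p of 0.152 and 0.242, and the calls over all genes were 3 and 0, against 169 and 2 without it.

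For 134 values of named genes, 2640 alternatives were run, of which 2536 kept direction and side of the threshold, 73 turned the sign, 26 ended a call and 5 made one. The sign turned only for values that had not passed. With quantile normalization of all 8 arrays these were, in GOF papilloma, Atp5a1 at -0.019, Cox4i1 at -0.025 and Uqcrc2 at -0.041, and in KO carcinoma Cox5b at -0.0079, Cox6b2 at 0.0095 and Cox7a2 at -0.029. Within each tumour type they were Atp5a1 at -0.022, Cox4i1 at -0.028 and Uqcrc2 at -0.052 in GOF, and Cox5b at -0.0061, Cox6b2 at 0.016, Cox7a2 at -0.024 and Cyct at 0.022 in KO. With median centring they were Sdhd at 0.014 in GOF, and Cox6b2 at 0.011, Cox8a at 0.0046, Ndufa2 at 0.028, Cyct at 0.031 and Nnt at 0.017 in KO. With the mean of probe sets Sdha was at 0.27 in GOF and Pdha1 at 0.0072 in KO. Without _s_at and _x_at probe sets Atp5c1 was at -0.18 in GOF and Cox5b at -0.058 in KO. The cause was not tested.

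With 1 array left out the sign turned in GOF papilloma for Atp5a1 (-0.040 to 0.081), Atp5b (-0.17 to 0.34), Cox4i1 (-0.021 to 0.093), Cox6a1 (-0.014 to 0.12), Cox6a2 (-0.30 to 0.0019), Cox7a1 (-0.021 to 0.68), Dmac2l (-0.22 to 0.0056), Ndufa10 (-0.11 to 0.038), Ndufa6 (-0.20 to 0.031), Sdha (-0.19 to 0.11), Sdhb (-0.14 to 0.084), Sdhd (-0.19 to 0.19) and Uqcrc2 (-0.11 to 0.13). In KO carcinoma it turned for Atp5e (-0.42 to 0.29), Atp5l (-0.24 to 0.12), Cox4i1 (-0.079 to 0.27), Cox5b (-0.087 to 0.17), Cox6a2 (-0.019 to 0.081), Cox6b2 (-0.26 to 0.22), Cox7a2 (-0.13 to 0.16), Cox7a2l (-0.090 to 0.0044), Cox8a (-0.091 to 0.034), Cyct (-0.0062 to 0.0024), Ndufa2 (-0.13 to 0.12), Ndufs8 (-0.11 to 0.59), Nnt (-0.19 to 0.16), Pcx (-0.036 to 0.18), Pdha1 (-0.14 to 0.070), Sdhb (-0.036 to 0.63), Sdhc (-0.30 to 0.51), Uqcr11 (-0.030 to 0.41) and Uqcrc2 (-0.21 to 0.13). The calls of Coa7, Etfdh and Nr2f2 in carcinoma ended with the replicate block (adjusted p 0.104, 0.0791 and 0.132) and on the arrays of 1 tumour type alone (0.0707, 0.0538 and 0.351). Coa7 also ended with the mean of probe sets (0.108) and the trended prior (0.0502), Etfdh with quantile normalization of all 8 arrays (0.0539) and Nr2f2 with the mean of probe sets (0.0745). Sirt1 in GOF papilloma passed with quantile normalization within each tumour type (0.0478).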
